A study of Mus musculus with 6 samples.

Results

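The S100A calcium-binding proteins were followed through bone marrow messenger RNA. The set was given as a list of 8 genes (S100a1, S100a4, S100a6, S100a8, S100a9, S100a10, S100a11 and S100a13), all of which were found among the 49315 genes of the count table. The marrow came from mice on the HFSC diet (the labels' abbreviation, which they do not spell out) after hindlimb ischemia, a block of blood flow to a leg that all animals shared. The control group (WT) was labelled miR-181a2b2flox/flox (flox) and held 3 libraries, replicates 1, 3 and 4. The deleted group (KO) was labelled miR-181a2b2-/- (KO) and held 3 libraries, replicates 2, 3 and 4. The labels name no Cre driver, age or sex, and do not say whether a library is 1 animal or a pool, so each p-value speaks to variation among these libraries alone, which may be technical.

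S100 proteins are small proteins that bind calcium through EF-hand loops and mostly work as dimers. S100A8 and S100A9 pair as calprotectin, which fills the cytosol of neutrophils, withholds zinc and manganese from microbes and, once released, can signal through the receptors TLR4 and RAGE. The other members act mainly inside cells, where they bind annexins, myosin and other partners. In marrow the S100a8 and S100a9 transcripts are classical markers of the maturing granulocyte series.

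Total counts lay between 33861440 and 40359093 per library. A floor of 3 counts, set here for a count of 0, equalled at most 0.089 counts-per-million units (CPM, normalised here with TMM factors). KO replicate 4 stood apart from the other KO libraries on the first principal component (53.9, against 9.09 and 12.0), and the X-inactivation transcript Xist was above 1 CPM in WT replicates 3 and 4 and KO replicate 2 and below it in the rest, so libraries of both kinds occur in each group. The extraction text of the labels names white adipose tissue, although the source is given as bone marrow. Marrow markers were abundant, with 14 late neutrophil genes summing to between 28865 and 48170 CPM, and genes of the adipocyte list were also measured. Its 6 genes summed to between 43.4 and 66.1 CPM in WT and between 55.2 and 77.5 CPM in KO, mostly from the lipase gene Lpl (36.5 and 33.5 CPM by group means), the fatty acid carrier gene Fabp4 (17.75 and 25.75 CPM) and the adiponectin gene Adipoq (3.61 and 5.43 CPM). Lep, which encodes leptin, had at most 1 count in a library. The lipid droplet genes Plin1 and Cidec had at most 7 and 10 counts and were at 0 in KO replicates 3 and 4, as was Cidec in WT replicate 3. The part of adipose RNA in the results was not tested.

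Promoter sequences are shown for the pair that supplied most S100A counts, for S100a11 as the next member in level, and for the head-to-head pair S100a1 and S100a13. They are credited to RefSeq (GRCm38.p6), whose promoter table held 7 of the 8 members. Each window has 250 bases before and 50 bases after an annotated start. The motif TATAAA, searched on both strands and shown in capitals, was found in the windows of S100a4, S100a8 and S100a9, against 13.6% of 32851 mouse promoters of 300 bases. It began 30 bases before the RefSeq start of S100a8 and 31 before that of S100a4, and at position 1 of the annotated S100a9 transcript. The gene places given further below are from GENCODE M21, where S100a8 begins at 90668978, before this TATAAA. The windows of the calprotectin pair were chr3:90668821-90669120 (plus strand) and chr3:90695672-90695971 (minus strand).
S100a8: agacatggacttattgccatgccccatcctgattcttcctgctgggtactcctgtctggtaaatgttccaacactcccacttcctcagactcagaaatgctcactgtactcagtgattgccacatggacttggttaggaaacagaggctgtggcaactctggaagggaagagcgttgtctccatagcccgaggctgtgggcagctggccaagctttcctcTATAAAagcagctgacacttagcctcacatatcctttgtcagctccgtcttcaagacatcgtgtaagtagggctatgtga
S100a9: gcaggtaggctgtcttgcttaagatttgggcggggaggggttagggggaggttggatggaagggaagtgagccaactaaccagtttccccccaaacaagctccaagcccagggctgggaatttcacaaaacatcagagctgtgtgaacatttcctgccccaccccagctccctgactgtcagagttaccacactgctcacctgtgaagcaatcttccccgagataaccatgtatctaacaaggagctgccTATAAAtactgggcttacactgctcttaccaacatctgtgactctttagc
S100a11, which lacks TATAAA in its window at chr3:93520246-93520545 (plus strand), holds GGGCGG at 3 places and the AP-1 motif TGANTCA at 2, against shares of 35.7% and 7.81% of all promoters. The C/EBP-type motif TTNNGNAA occurred at 1 place in S100a8 and 2 in S100a9 and in none of the other 5 windows, with 40.7% of all promoters holding it, and the PU.1-type motif GAGGAA occurred in S100a4, S100a8 and S100a11, against 28.3%. Such matches describe letters and show no binding.
S100a11: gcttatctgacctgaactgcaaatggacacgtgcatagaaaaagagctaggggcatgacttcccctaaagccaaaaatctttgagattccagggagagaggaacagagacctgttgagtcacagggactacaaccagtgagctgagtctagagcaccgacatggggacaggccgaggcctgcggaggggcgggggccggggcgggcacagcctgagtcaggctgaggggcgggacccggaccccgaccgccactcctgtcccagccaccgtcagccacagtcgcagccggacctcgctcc

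S100a1 and S100a13 lie head to head, on opposite strands, with 104 bases between their RefSeq starts at 90514330 and 90514435 on chromosome 3. These bases are in capitals in the S100a13 window, chr3:90514185-90514484 (plus strand), and the windows of the pair share 204 bases. In GENCODE M21 S100a1 reaches 90514392, so part of the capitals lies inside that gene.
S100a13: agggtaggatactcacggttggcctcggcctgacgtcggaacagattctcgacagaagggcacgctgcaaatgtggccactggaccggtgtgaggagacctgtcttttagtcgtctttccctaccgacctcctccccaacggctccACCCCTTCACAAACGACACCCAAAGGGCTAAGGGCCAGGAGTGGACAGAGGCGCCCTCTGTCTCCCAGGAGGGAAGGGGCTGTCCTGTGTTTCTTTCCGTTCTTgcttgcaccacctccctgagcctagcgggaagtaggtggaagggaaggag
The deleted locus makes miR-181a and miR-181b, which carry the same seed, shown in capitals as bases 2 to 8.
mmu-miR-181a-5p: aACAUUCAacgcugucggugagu
mmu-miR-181b-5p: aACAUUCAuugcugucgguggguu
Identical mature sequences also come from a separate locus on chromosome 1, which the genotype labels do not name. The shortest match searched, GAATGT, pairs with bases 2 to 7 and is contained in TGAATGT, the match to the whole seed. It was searched on the transcript strand of the longest annotated 3' UTR of each member (GENCODE M21), which measured between 68 and 294 bases. None of the 8 held it, against 4.44% of 2072 tested genes with a 3' UTR no longer than 294 bases and 35.9% of all 13705 tested genes with one. No match says only that these letters are absent from those stretches.

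All 8 S100A genes had a higher mean in KO than in WT marrow, by between 1.34-fold (S100a11) and 1.68-fold (S100a8), and 4 of them rose by the test: S100a1, S100a4, S100a8 and S100a13. The test was edgeR's quasi-likelihood fit over all 16956 genes with enough counts, called at a Benjamini-Hochberg adjusted p under 0.05. Over all genes, 0.938% were called higher in KO, and 48.9% had a log2 fold change above 0. The libraries of the groups did not overlap for 7 of the 8 (S100a10 being the exception), against 14.4% of all genes with every KO library above every WT library. The median log2 fold change of the 8 was 0.61, beside -0.01 over all genes tested. DESeq2 called 8 of the 8 higher (6.59% of all genes it adjusted) and limma with sample quality weights 6 (2.07% of all genes). At an unadjusted p under 0.05 edgeR gave 8 of the 8 as higher, against 11.7% of all genes. With no low-count filter edgeR called 7 (2.15% of all genes), and with the replicate number as a block 4 (1.25%). Leaving out WT replicate 1, WT replicate 4 or KO replicate 4 brought the edgeR count to 0 each time, and it was also 0 with a covariate for the libraries above 1 CPM of Xist. Without WT replicate 3, it was 3 (S100a6, S100a8 and S100a9).

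In order of level per kilobase of exon in WT marrow, S100a9 led with 22562 ± 3266 CPM per kb and S100a8 followed with 13752 ± 1699 (SD, n = 3), while S100a11 lay at 1151 ± 209 and S100a6 at 219 ± 31.6. S100a4 had 72.3 ± 3.67, S100a10 61.4 ± 9.54, S100a13 29.7 ± 0.613 and S100a1 25.3 ± 0.909 CPM per kb. The same order held in KO marrow, from 36094 ± 5476 for S100a9 down to 39.5 ± 5.34 for S100a1. S100a4 and S100a10 overlapped across the libraries of each group, as did S100a13 and S100a1 in KO, and the other neighbours in the order did not overlap within a group. These levels use all annotated exons of a gene, so a gene with rarely used exons comes out too low.

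**Figure D1:**
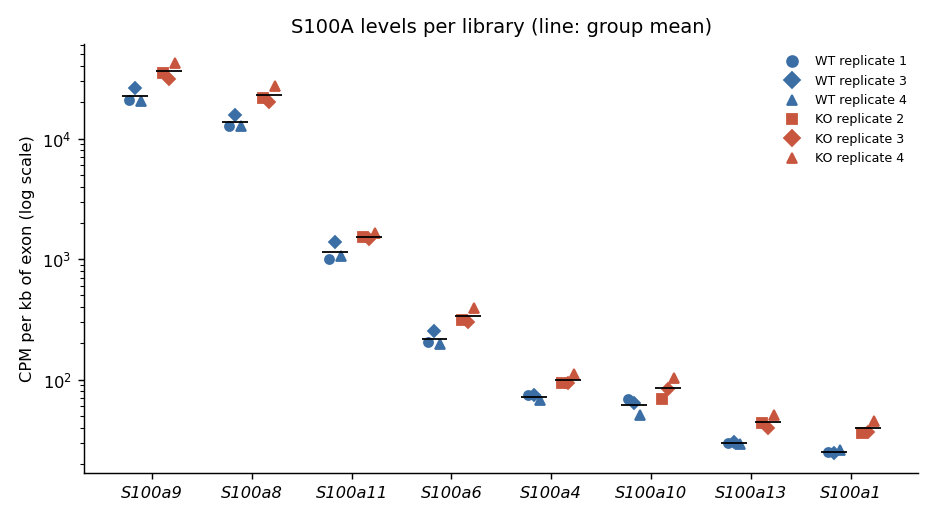
Level of each S100A gene in each library, as CPM per kb of exon on a log axis, with WT in blue, KO in red, a marker shape for each replicate number and a line at the group mean. S100a9 and S100a8 stand at 12739 CPM per kb or higher in all 6 libraries, and S100a10 is the one gene whose groups overlap.

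S100a8 (ENSMUSG00000056054; chromosome 3, GRCm38, 90668978 to 90670035) encodes the smaller calprotectin subunit. Its level was 8886, 10905 and 8841 CPM in WT replicates 1, 3 and 4 and 15119, 14005 and 19057 CPM in KO replicates 2, 3 and 4. The groups did not overlap, WT replicate 3 was the highest control and KO replicate 4 the highest of all. S100a8 rose by 0.75 ± 0.15 on the log2 scale (SE, 3 against 3 libraries, edgeR adjusted p = 0.0435), with a 95% interval from 1.33-fold to 2.13-fold.

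S100a9 (ENSMUSG00000056071; 90692632 to 90695721, opposite strand) encodes the other calprotectin subunit. Its level was 10830, 13745 and 10757 CPM in WT replicates 1, 3 and 4 and 18266, 16314 and 21943 CPM in KO replicates 2, 3 and 4. The libraries had the same order within each group as for S100a8, and the groups again did not overlap. The log2 fold change of 0.68 ± 0.15 (SE) did not pass the threshold (edgeR adjusted p = 0.0532). Its interval, 1.26-fold to 2.03-fold, nearly coincided with that of S100a8. Together the pair took between 2.01% and 2.51% of all counts in WT and between 2.98% and 3.89% in KO. Leaving both out of the scaling left the S100a8 log2 fold change at 0.75.

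S100a6 (calcyclin; 90612882 to 90624181) encodes a partner of the ubiquitin-linked protein CACYBP and of annexins. It lay at 279, 349 and 271 CPM in WT replicates 1, 3 and 4 and at 431, 413 and 542 CPM in KO replicates 2, 3 and 4. WT replicate 3 and KO replicate 4 were again the highest of their groups. The log2 fold change was 0.63 ± 0.14 (SE, edgeR adjusted p = 0.0514), just outside the threshold. Over the 6 libraries its centred log2 profile differed from that of S100a9 by a root mean square of 0.0404, less than the 0.0435 that separated S100a9 from S100a8.

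S100a11 (93520488 to 93526287) encodes a partner of annexin A1. It lay at 509.7, 709.7 and 545.5 CPM in WT replicates 1, 3 and 4 and at 774.4, 745.7 and 841.4 CPM in KO replicates 2, 3 and 4. WT replicate 3 came close to the lowest KO library, without overlap. The log2 fold change was 0.42 ± 0.14 (SE, edgeR adjusted p = 0.111). A processed pseudogene, S100a11-ps, had 1 count over all libraries.

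S100a10 (93555080 to 93564643), which has lost calcium binding and forms a complex with annexin A2 at membranes, lay at 84.3, 77.3 and 61.7 CPM in WT replicates 1, 3 and 4 and at 84.2, 101 and 126 CPM in KO replicates 2, 3 and 4. KO replicate 2 fell marginally below WT replicate 1, so the groups overlapped. The log2 fold change was 0.48 ± 0.16 (SE, edgeR adjusted p = 0.127).

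S100a4 (90603771 to 90606045), a binding partner of non-muscle myosin in motile cells, lay at 43.6, 43.4 and 39.8 CPM in WT replicates 1, 3 and 4 and at 54.9, 55.3 and 64.8 CPM in KO replicates 2, 3 and 4. No KO library came near the WT range. S100a4 rose by 0.47 ± 0.09 on the log2 scale (SE, edgeR adjusted p = 0.0435). Of its 584 exon bases, 302 overlap Gm42674 on the same strand, and that gene had 1 count in all. The rule for reads over both genes was not given in the sources read, so the S100a4 level is uncertain.

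S100a1 (90511034 to 90514392), best known as a regulator of calcium handling in muscle, lay at 17.54, 16.98 and 18.23 CPM in WT replicates 1, 3 and 4 and at 24.96, 25.67 and 31.7 CPM in KO replicates 2, 3 and 4. S100a13 (90514435 to 90524581), linked to export of growth factors that lack a signal peptide, lay at 21.3, 21.7 and 20.8 CPM and at 31.1, 28.7 and 36.7 CPM in the same libraries. Both groups were tight in WT and neither gene overlapped between groups. S100a1 rose by 0.64 ± 0.11 (SE, edgeR adjusted p = 0.031) and S100a13 by 0.60 ± 0.11 (SE, edgeR adjusted p = 0.0326) on the log2 scale. The head-to-head pair thus had the smallest adjusted p-values of the 8 at the lowest levels per kilobase, and its ratio of counts, S100a13 over S100a1, overlapped between groups (1.21 ± 0.0682 in WT and 1.17 ± 0.0664 in KO, SD, n = 3). Their annotated exons do not overlap each other.

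**Figure D2:**
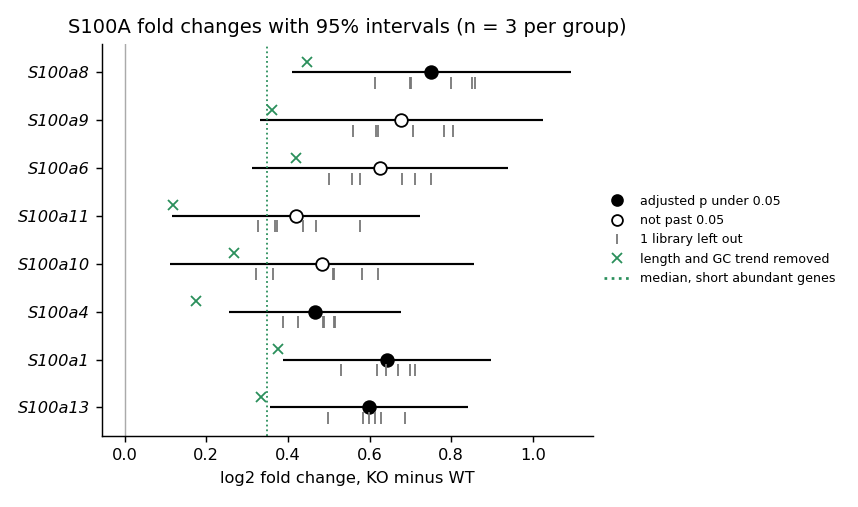
Log2 fold change (KO minus WT) of each S100A gene with its 95% interval, filled where the edgeR adjusted p was under 0.05; grey ticks leave out 1 library each, green crosses follow removal of the trend on GC content and exon length, and the dotted line is the median of 219 short and abundant genes. Every estimate drawn is above 0, from 0.12 for S100a11 with the trend removed upward.

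S100a8 and S100a9 were next set against the other 6 members within each library, a ratio that library scaling cannot move. The pair supplied between 95.3% and 96.1% of S100A counts. Their summed counts were 20.65, 20.24 and 20.49 times those of the other 6 in WT replicates 1, 3 and 4 and 23.83, 22.13 and 24.96 times in KO replicates 2, 3 and 4. Each KO library was above each WT library. The other 6 together had 955, 1218 and 957 CPM in WT replicates 1, 3 and 4 and 1401, 1370 and 1642 CPM in KO replicates 2, 3 and 4, which did not overlap either. The calprotectin pair was 1.64-fold and the other 6 1.41-fold higher by group means. The difference in log2 ratio was 0.21, and 0.12 with S100a11 left out of the others, where WT replicate 3 (48.49) and KO replicate 3 (48.56) were almost equal. A sum over chosen members carries no test here.

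Within calprotectin, S100a9 counts were 1.22, 1.26 and 1.22 times S100a8 counts in WT replicates 1, 3 and 4 and 1.21, 1.17 and 1.15 times in KO replicates 2, 3 and 4. The KO ratios were lower without overlap, but the gap between WT replicate 4 (1.217) and KO replicate 2 (1.208) was small. S100a6 over S100a11 was 0.511 ± 0.0304 in WT and 0.585 ± 0.0508 in KO (SD, n = 3), with KO again above WT in every library, whereas S100a10 over S100a11 overlapped between groups.

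**Figure D3:**
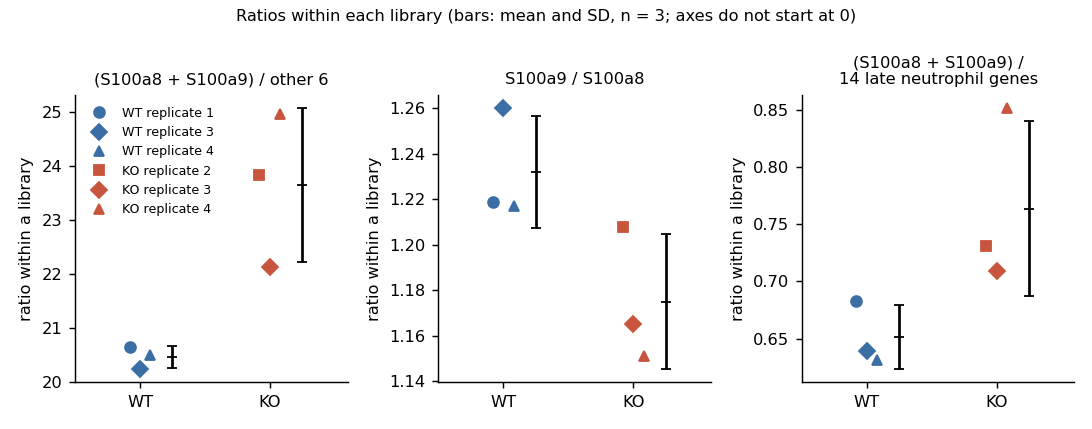
Ratios of counts or CPM within each library for WT and KO, with mean and SD (n = 3) beside the points; axes do not start at 0. S100a8 plus S100a9 over the other 6 is higher in KO (22.13 to 24.96) than in WT (20.24 to 20.65). In KO, S100a9 over S100a8 is lower and the pair over 14 late neutrophil genes is higher. Each ratio is without overlap, and the part of exon length in the last was not tested.

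The late neutrophil list had a higher summed level in each KO library than in any WT library, but most of its genes did not pass the edgeR test. In bulk marrow, more cells of a type and more RNA per cell cannot be told apart. Of 14 late neutrophil genes tested, 3 rose, 0 fell and 11 did not pass, with a median log2 fold change of 0.49. DESeq2 called 11 higher and limma 6, and 11 were higher at an unadjusted edgeR p under 0.05. Over all genes, the shares called higher were 0.938% (edgeR), 6.59% (DESeq2, of those it adjusted), 2.07% (limma) and 11.7% (unadjusted p). The groups did not overlap for 11, against 14.4% of all genes with every KO library above every WT library. The list summed to between 28865 and 38559 CPM in WT and between 42773 and 48170 CPM in KO, and none of its genes was at 0. Fpr1, a formyl peptide receptor, had the smallest p and rose by 0.61 ± 0.09 on the log2 scale (SE, edgeR adjusted p = 0.0197), followed by Camp, an antimicrobial peptide, with 0.73 and Chil3, a chitinase-like protein, with 0.68. Ly6g, the surface antigen used to sort neutrophils, had 0.52 (edgeR adjusted p = 0.0525). Csf3r, the receptor for G-CSF, and Mmp9, a gelatinase, both with overlapping groups and both named after their values were seen, had 0.10 and 0.18. S100a8 plus S100a9 came to 0.683, 0.639 and 0.632 times this list's sum in WT replicates 1, 3 and 4 and to 0.731, 0.709 and 0.851 times in KO replicates 2, 3 and 4. S100a8 and S100a9 have 694 and 522 exon bases, and the genes of this list have between 593 (Retnlg) and 4835 (Padi4). The part of exon length in this ratio was not tested, nor was the part of cell composition in the S100A differences.

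The primary granule list holds regulators and other genes of the granulocyte series beside granule enzymes. Of its 8 genes tested, 5 rose, 0 fell and 3 did not pass, with a median of 0.59, against 0.938% of all genes called higher. DESeq2 called 8 higher and limma 5, and 8 were higher at an unadjusted edgeR p under 0.05. These shares over all genes were 6.59% (DESeq2, of those it adjusted), 2.07% (limma) and 11.7% (unadjusted p). The summed levels lay between 5067 and 5360 CPM in WT and between 6444 and 7755 CPM in KO. Serpinb1a, an inhibitor of neutrophil proteases, rose by 0.70 and Cebpe, a transcription factor of granulocyte maturation, by 0.68 on the log2 scale. Elane, neutrophil elastase, rose by 0.58 and Gfi1, a repressor needed for granulocytes, by 0.56. The 3 that did not pass, named after their values were seen, were the granule enzyme genes Mpo (0.28), Prtn3 (0.69) and Ctsg (0.58). Their edgeR adjusted p-values were 0.165, 0.0628 and 0.0809. All counts of risen genes in these neutrophil lists fell to 0 when WT replicate 1, WT replicate 4 or KO replicate 4 was left out. Without WT replicate 3, 0 primary granule genes rose. With the trend on length and GC taken out, 0 late neutrophil genes and 1 primary granule gene rose.

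Monocytes also carry S100a4, S100a6, S100a10 and S100a11 transcripts. Of 9 monocyte genes, 1 rose, 2 fell and 6 did not pass, with a median of -0.03, and their sum overlapped between groups (3035 to 3615 CPM in WT and 2797 to 3543 CPM in KO). For this and the erythroid list, the edgeR shares over all genes were 2.46% called in either direction and 0.938% called higher. Ly6c2, an antigen of inflammatory monocytes whose reads may be shared with its paralog Ly6c1, rose by 0.50 on the log2 scale. The transcription factors Klf4 and Nr4a1 had log2 fold changes of -0.61 and -1.31 and fell, and Cx3cr1, a receptor of patrolling monocytes, had -0.71 (edgeR adjusted p = 0.173). Of 11 erythroid genes 0 rose and 2 fell (Sptb and Ermap, of the red cell membrane), with a median of -0.41 and sums that overlapped (14639 to 33601 CPM in WT and 13957 to 24890 CPM in KO), and Slc4a1, the band 3 anion exchanger, and Epb42, which binds it, had -0.64 and -0.51. Each of these 5 calls ended when WT replicate 1, WT replicate 4 or KO replicate 4 was left out, those of Ly6c2 and Nr4a1 also without WT replicate 3, and that of Ly6c2 also without KO replicate 2. Without WT replicate 3, 4 erythroid genes fell.

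Among 10 B cell genes edgeR called 0 (2 lower at an unadjusted p under 0.05, 2 lower in DESeq2, 0 in limma), with a median of -0.71. For this and the next lists, edgeR called 2.46% of all genes in either direction and 0.938% higher. The other shares called higher over all genes were 6.59% (DESeq2, of those it adjusted), 2.07% (limma) and 11.7% (unadjusted edgeR p). With the replicate number as a block, edgeR called 9 of the 10 lower. B cell sums lay between 289 and 451 CPM in WT and between 122 and 368 CPM in KO. Without KO replicate 2, 8 B cell genes fell, and without WT replicate 3, 2 did. Of 7 T and NK cell genes edgeR called 0. DESeq2 and limma called 1 higher each, and 1 was higher at an unadjusted edgeR p under 0.05. The sums were 96.0 to 114 CPM in WT and 121 to 144 CPM in KO. Most of the sum in each group came from Nkg7 (62.6 and 85.4 CPM by group means, log2 fold change 0.45). The list median was 0.10, and 4 of the 7 log2 fold changes were above 0. Of 9 stroma and endothelium genes edgeR called 0, DESeq2 1 higher and limma 0, and 2 were higher and 1 lower at an unadjusted p under 0.05, with sums of 217 to 384 CPM in WT and 368 to 455 CPM in KO. Without KO replicate 2, 1 T and NK cell gene rose, and without WT replicate 4, 1 stroma and endothelium gene did. Of 5 muscle genes tested 1 fell, and of 3 adipocyte genes tested edgeR, DESeq2 and limma called 0 (1 higher at an unadjusted p under 0.05). The muscle gene was Tnnt3, a troponin, whose call ended whichever of the 6 libraries was left out.

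The partners and receptors of the S100A proteins were examined as a list. Of 11 annexins and other partners, 1 rose, 0 fell and 10 did not pass, with a median of 0.30, against 0.938% of all genes called higher. Anxa3, an annexin of granulocytes, rose from 139 ± 10.5 to 192 ± 17.3 CPM (SD, n = 3 each, edgeR adjusted p = 0.0473). Anxa1, the partner of S100A11, averaged 1496 ± 126 CPM over WT and 2128 ± 225 CPM over KO libraries (SD, n = 3 each, edgeR adjusted p = 0.0573), and Anxa2, the partner of S100A10, 479 ± 67.6 and 667 ± 100.4 CPM (SD, n = 3 each, edgeR adjusted p = 0.0945). Anxa5, a phosphatidylserine-binding annexin, had a log2 fold change of 0.35 ± 0.08 (SE). Anxa1, Anxa2, Anxa3 and Anxa5 were among 5 partners whose groups did not overlap, against 14.4% of all genes with every KO library above every WT library. DESeq2 called 4 partners higher (6.59% of all genes it adjusted) and limma 3 (2.07% of all genes). The edgeR call of Anxa3 ended when any WT replicate or KO replicate 4 was left out.

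Of 10 receptors and adaptors of calprotectin, edgeR called 0 (3 higher and 1 lower at an unadjusted p under 0.05, 1 higher and 1 lower in DESeq2, 0 in limma), with a median of 0.29. Among all genes, 11.7% were higher at an unadjusted edgeR p under 0.05, and DESeq2 called 6.59% of those it adjusted higher. Ager, which encodes RAGE, lay at 5.46, 6.87 and 6.72 CPM in WT replicates 1, 3 and 4 and at 11.8, 7.85 and 9.23 CPM in KO replicates 2, 3 and 4, without overlap (log2 fold change 0.60 ± 0.18, SE, edgeR adjusted p = 0.0976). Myd88, the adaptor of TLR4, had 0.36, Emb, a receptor for S100A8 and S100A9, 0.30, and Cd14, the co-receptor of TLR4, -0.65, none past the threshold. Without KO replicate 2, 2 of the list rose. Tlr4, named outside the rule for its role, had 39.0 ± 2.46 CPM among WT libraries and 48.6 ± 11.8 CPM among KO libraries (SD, n = 3 each), with overlap.

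Among 9 transcription factors of myeloid gene expression, 3 rose, 0 fell and 6 did not pass, with a median of 0.29, against 0.938% of all genes called higher. The 3 were among the 4 C/EBP genes of the list, and the fourth, Cebpb, named after its value was seen, overlapped between groups with a log2 fold change of 0.05 ± 0.16 (SE, edgeR adjusted p = 0.875). Cebpe, also on the primary granule list, lay at 120.2, 148.5 and 155.4 CPM in WT replicates 1, 3 and 4 and at 244.6, 211.7 and 223.3 CPM in KO replicates 2, 3 and 4. Cebpd had a log2 fold change of 0.51 ± 0.10 and Cebpa of 0.38 ± 0.08 (SE, edgeR adjusted p = 0.0427 and 0.0429). Spi1, which encodes PU.1, had 0.45 ± 0.10 (SE, edgeR adjusted p = 0.0564). Each of the 3 calls ended when any WT replicate or KO replicate 4 was left out, and that of Cebpa also when KO replicate 2 was.

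**Figure D4:**
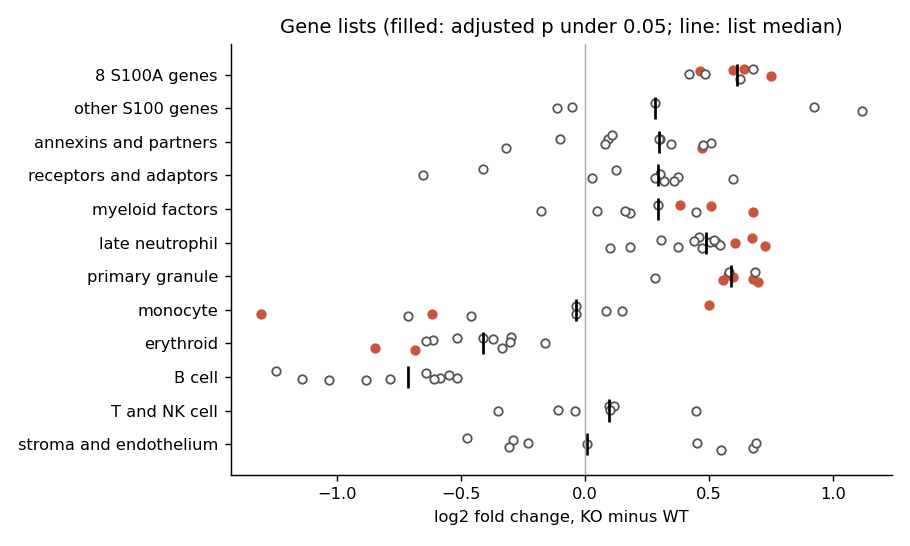
Log2 fold change (KO minus WT) of every tested gene on each list, filled where the edgeR adjusted p was under 0.05, with a line at the list median. The 8 S100A genes lie between 0.42 and 0.75 (median 0.61), beside medians of 0.59 for primary granule, 0.49 for late neutrophil and -0.41 for erythroid genes.

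The rest of the S100 family was close to silent. Of 9 further S100 genes in the table, each had at least 1 count in each group, 5 passed the filter on low counts and edgeR called 0 (DESeq2 and limma also 0, and 2 higher at an unadjusted p under 0.05). At that unadjusted threshold 11.7% of all genes were higher. S100a16, a broadly expressed member next to S100a14, had 22, 16 and 30 counts in WT replicates 1, 3 and 4 and 34, 47 and 55 in KO replicates 2, 3 and 4, with a log2 fold change of 1.12 ± 0.31 (SE, edgeR adjusted p = 0.0818). S100b, the glial member, had 12, 14 and 15 counts against 30, 14 and 27 (0.92 ± 0.38, SE, edgeR adjusted p = 0.177). S100a2, S100a3 and S100a7a had between 27 and 64 counts summed over a group. S100a5, S100a14, S100g and S100z had at most 14 and were not tested. S100a7a lies next to S100a8 on the chromosome, 64 counts in WT beside 1123030 for its neighbour.

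The 8 members lie within chromosome 3 from 90511034 to 93564643, in and beside the epidermal differentiation complex, a block of skin barrier genes. Of the 61 other protein-coding genes annotated between S100a1 and S100a10 outside the S100 family, 51 had 0 counts in all 6 libraries and 3 were tested, of which edgeR, DESeq2 and limma called 0 (0 also at an unadjusted p under 0.05). Those 3 were Pglyrp4, a peptidoglycan recognition protein, Tchh, a hair follicle protein, and the predicted gene Gm9774, with log2 fold changes of 0.36, 0.31 and 0.19. Within this interval most other protein-coding genes were thus silent, and genes outside it were not examined.

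Genes with the S100a8 pattern were ranked by the root mean square difference of centred log2 CPM over the 6 libraries, among 5889 genes whose mean log2 CPM was 5 or more. The nearest outside the S100 family were AA467197 (0.045), Pglyrp1, a neutrophil peptidoglycan recognition protein (0.0578), Chil3 (0.067), Hp, haptoglobin (0.0687), and Alox5ap, which serves leukotriene synthesis (0.0709). Nearest to S100a9 were Pglyrp1 (0.0415), AA467197 (0.0433), Tmsb4x, an actin-sequestering peptide whose reads may be shared with near-identical copies (0.0539), Chil3 (0.0625) and Mcemp1, a membrane protein of mast cells and myeloid cells (0.0697). Pglyrp1 averaged 497 CPM over WT and 796 CPM over KO libraries. Of the other S100A genes above the same level, S100a6 was close to S100a8 (0.0653), while S100a4 (0.178), S100a11 (0.184) and S100a10 (0.227) were further from it.

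Fold changes in these libraries depended on transcript length, and the S100A genes are short, with between 511 and 1367 exon bases. Among 901 genes of up to 1367 exon bases whose mean log2 CPM was 1 or more the median log2 fold change was 0.26, against -0.12 for 3778 genes above 6000 bases. Of 219 such short genes whose mean log2 CPM was 5 or more the median was 0.35, and 34.3% exceeded the 0.42 of S100a11. Of all 2437 tested genes of this length, 1.56% were called higher. With each library's trend on length and GC content removed, the 8 members had log2 fold changes between 0.12 (S100a11) and 0.45 (S100a8), and edgeR called 0 of them, against 0.572% of all genes called higher. At an unadjusted p under 0.05 this fit gave 6 of the 8 as higher, all but S100a10 and S100a11, against 9.57% of all genes. The parts of length trend and genotype in these differences cannot be told apart.

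**Figure D5:**
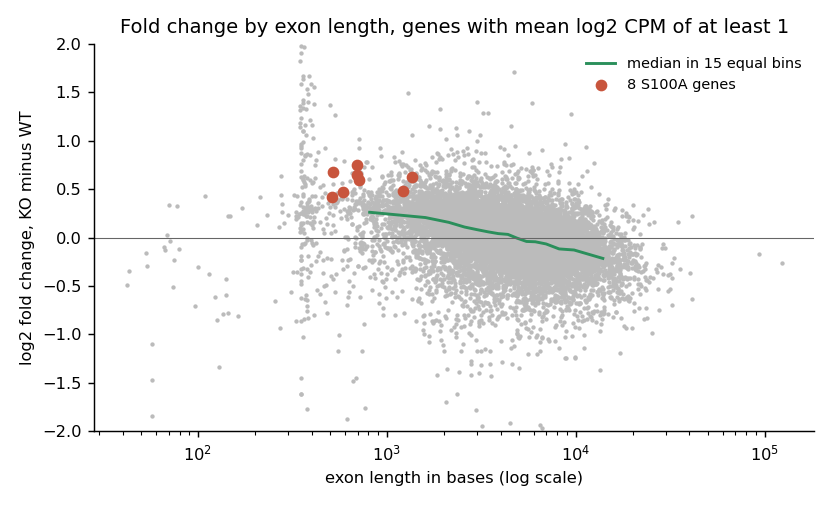
Log2 fold change (KO minus WT) against exon length on a log axis for genes whose mean log2 CPM was 1 or more (grey), with the median in 15 bins of equal gene number (green) and the 8 S100A genes (red); the vertical axis is limited to log2 changes of 2 in either direction. The S100A genes lie at the short end, where the median is above 0, and all 8 lie above it.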

How the data were processed

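Messenger RNA from mouse bone marrow was sequenced after poly(A) selection, per the labels. The deposited values are raw read counts per gene, made by the authors on GRCm38 with STAR 2.5.2b, Trimmomatic 0.36 and Subread 1.5.2 (featureCounts), per the submitters' processing notes. Settings, annotation release, strand mode and multi-mapping rule were not given in the sources used here.

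Libraries were grouped by genotype as titled. Identifiers were matched to GENCODE M21, and 48970 of 49315 had a symbol. The test was edgeR 4.0.16 in R 4.3.3 (TMM, filterByExpr, robust quasi-likelihood, two-sided, threshold 0.05) over the whole table. Simulated counts with 200 changed genes were also run through it, and their outcome is not given here. Exact permutation of 3 against 3 libraries cannot go below 0.1. The alternatives in the closing section included DESeq2 1.42.0 and limma 3.58.1.

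The 8 members and all lists were chosen with earlier results of these data known. Named genes were the members, every other S100 gene, up to 4 genes per list with the smallest p, and the 5 nearest profiles to S100a8 and S100a9 (predicted genes and pseudogenes left out). Tlr4, Csf3r, Mmp9, Mpo, Prtn3, Ctsg, Cebpb and the adipocyte genes were named outside this rule. S100a2 was added to the S100 list after the table was read, and Azu1 was not found in it.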

Additional observations from a re-analysis of the deposited data

How the results depend on the processing

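Over 17 alternatives each, all 8 members kept a positive log2 fold change, from 0.12 (S100a11, length and GC trend removed) to 0.86 (S100a8, without WT replicate 3). The number of S100A genes called higher was 4 in the reported fit, 7 when low counts were kept, 8 with DESeq2, 0 with the Xist covariate, 0 with the length and GC trend removed, and between 0 and 6 with 1 library left out. The titles share 2 replicate numbers between groups, with residual correlations of 0.331 and -0.352, so the numbers were not taken as pairs. With a replicate block 4 members were called, S100a10 in place of S100a8 (adjusted p = 0.0438 and 0.125). Genes called higher over the whole table numbered 159, against 87 with library totals only, 653 with no filter, 857 with DESeq2, 351 with limma, 76 with the Xist covariate, 97 with the trend removed and between 6 and 316 with 1 library left out. Genes called lower numbered 258, against 403, 839, 784, 435 and 133 under the first 5 of these, and between 23 and 604. In the lists, 12 genes were called higher, against 7 with library totals only, 29 with no filter, 30 with DESeq2, 19 with limma, 3 with the Xist covariate, 2 with the trend removed and between 0 and 14 with 1 library left out, and 5 lower, against 8 with no filter, 14 with the replicate block (9 of them B cell genes, of which the reported fit called 0), 11 with DESeq2 and between 0 and 13. The log2 ratio of the calprotectin pair to the others, 0.21, moved to 0.12 without S100a11. Floors of 3 counts cover counting error only.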
